A study of Cricetulus griseus with 24 samples.

Results

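The core genes of the circadian clock were followed in 3 Chinese hamster ovary (CHO) cell lines at 2 growth phases. They were taken by symbol from the deposited table, and all 10 of them had a row among its 28037 genes, with these NCBI gene identifiers: Clock (100770092), Arntl, also called Bmal1 (100755141), Nr1d1 (100771327), Nr1d2 (100768895), Per1 (100753886), Per2 (100772001), Per3 (100762774), Cry1 (100761664), Cry2 (100774356) and Dbp (100775076). In mammalian cells the clock is a feedback loop of transcription. CLOCK and ARNTL bind DNA as a pair and switch on the Per, Cry, Nr1d1, Nr1d2 and Dbp genes, the PER and CRY proteins then block the pair that made them, and NR1D1 and NR1D2 repress Arntl. The loop also runs in cultured fibroblasts and many other cell lines, where the rhythms of single cells drift apart unless the culture is synchronized.

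A0 is a clone with low production of a recombinant humanized IgG, made by transfection with one plasmid that carried the antibody heavy chain and another for the light chain and neomycin phosphotransferase, with G418 selection. A1 is its high-producing progeny, obtained by stepwise amplification with methotrexate, so that A0 and A1 are 1 clone and 1 line derived from it and share the transgenes. CHO-S is a further CHO line. Its relation to A0 and the label NDST, which its libraries also carry, are not explained in the sources used here. In the paper A0 and A1 were grown in suspension, in batch, in serum-free medium with hydrolysate and insulin. It does not mention CHO-S, so a difference in medium, if any, cannot be told apart from a difference in line. Cultures of all 3 lines were taken at exponential or stationary phase. A0 had 4 cultures at each phase and A1 and CHO-S had 3, which gives 20 cultures from 24 libraries, since the 2 A0 exponential libraries of each culture number were summed here. The labels do not say whether both libraries of a number came from the same culture. By the paper's methods pellets came from the middle of exponential growth, 3 days after inoculation. Its supplement gives hours of sampling for antibody titer at both phases of the cultures used for RNA sequencing. Whether the RNA was taken at those hours is not stated. The time of day of harvest and any synchronization are not given in the sources used here, so a shift in clock time between harvests and a change in mean level cannot be told apart. In bulk RNA, the share of cells that express a gene and the amount per cell cannot be told apart either.

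The libraries held 1038026 to 14652646 reads counted on genes. CHO-S stationary culture 1 stood apart with the lowest of these totals and with 32.8% of its reads outside genes, against 11.9% to 18.4% in the other 23 libraries, and its part in the results was examined by leaving it out. By the labels the second exponential library of A0 cultures 1 and 2 is marked RLT and that of cultures 3 and 4 is marked a duplicate. The clock genes are also given for these sets of cultures. Vim, a gene of mesenchymal cells, had group means from 799 to 1412 CPM (read counts scaled to a common library size), while Krt18 and Fshr of epithelial and ovarian granulosa cells had at most 1 count in any culture. Amh, another gene of granulosa cells, was low but present in every group, with means from 1.26 to 1.77 CPM. Of 4 genes of dividing cells, Mki67, Top2a and Ccnb1 fell at stationary phase in A0 and A1 and Ccnb1 in CHO-S, while Cdk1 passed the test in no line. Of the cell-cycle inhibitors Cdkn1b fell in A0, by 0.65 (adjusted p = 5.3e-04), and Cdkn1a in A1, by 0.53 (adjusted p = 6.6e-08), and neither passed in CHO-S.

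All 10 clock genes passed the filter in every comparison, with at least 1 count in at least 2 cultures. Dbp was the lowest in reads, with 5 to 173 counts per culture, and Clock the highest, with 252 to 5181. In CHO-S stationary culture 1 the counts were only 5 for Dbp, 8 for Cry2, 14 for Per2, 16 for Nr1d1, 22 for Arntl and 23 for Per1. All levels below are CPM after normalization for library composition (TMM), and differences are log2 fold changes with their standard error (SE). A gene was said to rise or fall only at an adjusted p below 0.05 over all genes tested.

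**Figure D1:**
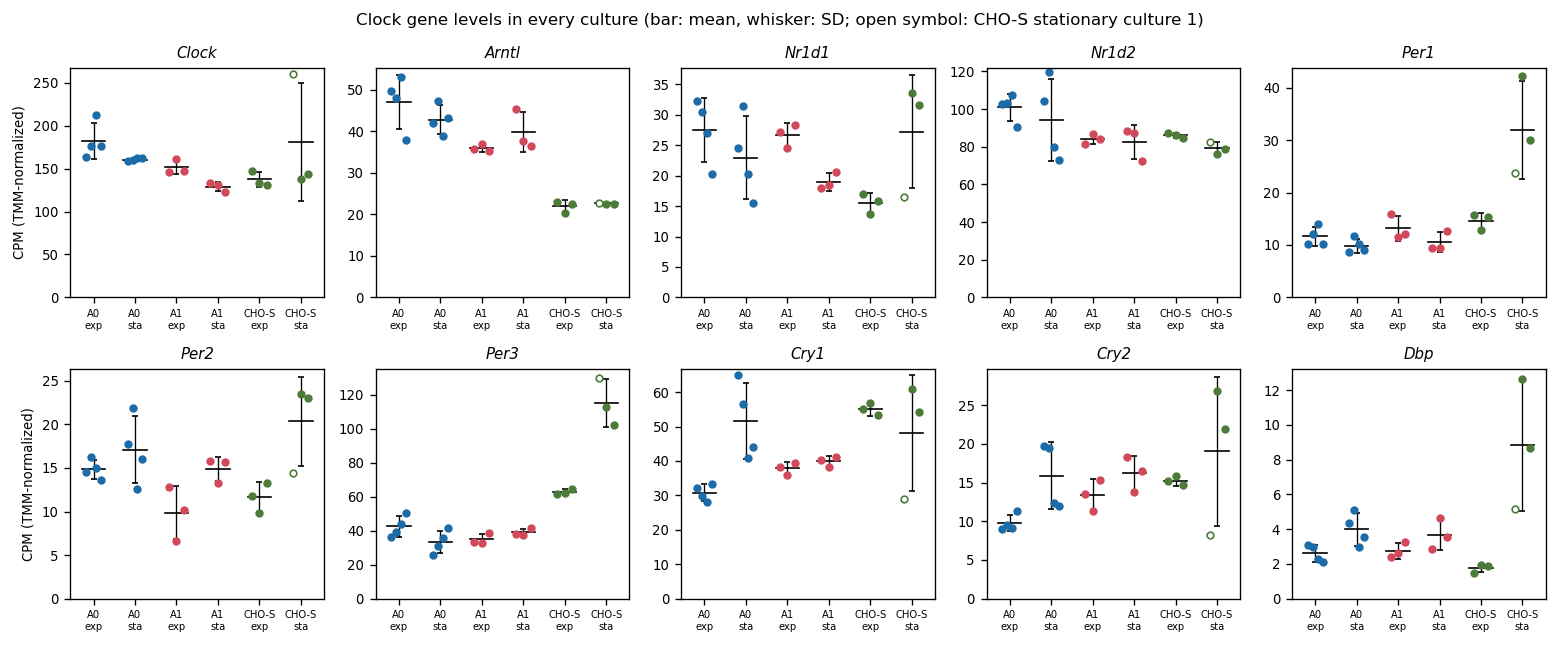
Level of each of the 10 clock genes (vertical axis, TMM-normalized CPM from 0) in every culture of A0, A1 and CHO-S at exponential (exp) and stationary (sta) phase. Each point is a culture, the bar is the group mean and the whisker the SD (n = 4 for A0, n = 3 for A1 and CHO-S), with the shallow CHO-S stationary culture 1 as an open symbol; Arntl lies at 35.3 CPM or more in every A0 and A1 culture and at 23 or less in every CHO-S culture, and Per1, Per3 and Dbp are highest in stationary CHO-S.

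Per1, Per3, Nr1d1 and Dbp rose at stationary phase in CHO-S, and their responses in A0 and in A1 were lower by a test of the difference. In CHO-S, 5 of the 10 clock genes rose from exponential to stationary phase and 0 fell, and these were all 3 Per genes, Nr1d1 and Dbp, targets of the CLOCK and ARNTL pair, as are Cry1, Cry2 and Nr1d2. Among all 17367 genes tested in CHO-S, 13.3% changed, 6.81% upward and 6.48% downward. The median log2 fold change was 0.72 over the clock genes and 0.023 over all genes tested. In A0, 3 clock genes rose (Cry1, Cry2 and Dbp) and 0 fell, where 37.7% of all 20267 genes changed, 17.7% upward and 20.1% downward. In A1, Per2 rose and Clock and Nr1d1 fell, where 33.4% of all 18548 genes changed, 15.6% upward and 17.8% downward. For 10 genes, 3 calls lie near these shares of all genes in A0 and A1. With a stricter gene filter (filterByExpr) the same clock genes passed in each line. The shares of all genes were then higher, at 53.3% in A0, 47.2% in A1 and 20.5% in CHO-S.

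The tests of the difference between phase responses gave 4 clock genes for A0 against CHO-S and 4 for A1 against CHO-S, which share the CHO-S cultures. They were Per1, Per3, Nr1d1 and Dbp in both, and in each case the response of A0 or A1 lay below that of CHO-S. Over all genes, 10.3% of 20871 differed between A0 and CHO-S, 3.78% with a higher and 6.57% with a lower response in A0. Between A1 and CHO-S 7.6% of 19662 differed, 3.83% with a higher and 3.77% with a lower response in A1. Between A1 and A0 only Cry1 differed among the 10, where 8.94% of 20953 genes did, 5.04% with a higher and 3.9% with a lower response in A1. With the culture number as a block Per3 differed too, with a response higher in A1 by 0.51 (adjusted p = 0.0048).

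**Figure D2:**
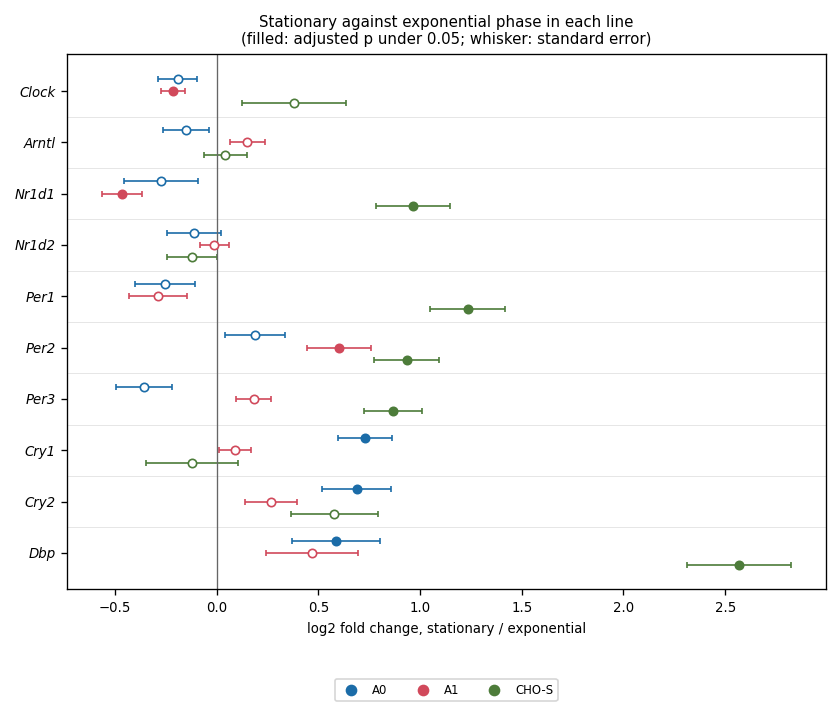
Change of each clock gene from exponential to stationary phase (horizontal axis, log2 fold change) in A0, A1 and CHO-S, with the SE as whisker and filled symbols for an adjusted p below 0.05. CHO-S lies to the right of A0 and A1 for Per1, Per3, Nr1d1 and Dbp, with Dbp at 2.57, while the filled symbol of Cry1 is that of A0, at 0.73.

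Clock and Arntl, the activating pair, changed little with phase. Arntl had 22.6 to 22.7 CPM in the 3 stationary CHO-S cultures against 20.3 to 23 in the exponential ones, or 0.04 ± 0.10 (SE) as log2 fold change. In A0 it was 37.9 to 53.1 CPM at exponential and 38.8 to 47.3 CPM at stationary phase (-0.15 ± 0.11), and in A1 35.3 to 37.0 and 36.6 to 45.4 CPM (0.15 ± 0.08). None of the 3 Arntl responses passed the test, with adjusted p of 0.82, 0.33 and 0.18 in that order. Clock in A1 had 146, 161 and 148 CPM at exponential phase and 133, 131 and 123 CPM at stationary phase. The A1 groups did not overlap, and Clock fell by 0.21 on the log2 scale (SE 0.06, adjusted p = 0.0055). In A0 it went from 163, 177, 212 and 176 CPM to 159, 159.8, 162 and 162 CPM, also without overlap. This was a similar size of difference (-0.19 ± 0.10) that did not pass (adjusted p = 0.13). It passed under 1 of 17 alternatives, with the first A0 exponential libraries only (adjusted p = 0.024).

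In CHO-S the value of Clock turned on 1 culture. At exponential phase it had 147, 134 and 131 CPM, and at stationary phase 260.1, 138 and 144 CPM, where the first is the shallow culture 1. The log2 fold change was 0.38 ± 0.26 with it (adjusted p = 0.37) and 0.03 without it (adjusted p = 0.63). Without that culture the fall in A1 also differed from the response of CHO-S by -0.27 (adjusted p = 0.012).

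Nr1d1, the REV-ERB alpha receptor that represses Arntl, moved in opposite directions in A1 and CHO-S. In A1 it had 27.1, 24.5 and 28.4 CPM at exponential phase and 17.9, 18.4 and 20.6 CPM at stationary phase, without overlap. That was a fall by 0.47 (SE 0.10, adjusted p = 3.6e-04). In CHO-S it had 17, 13.7 and 15.9 CPM at exponential and 16.5, 33.6 and 31.6 CPM at stationary phase, where the shallow culture 1 lay within the exponential range and the other two above it. The rise was 0.96 ± 0.18 (adjusted p = 0.016), and 1.08 without culture 1 (adjusted p = 8.7e-18). In A0 the groups overlapped, at 20.3 to 32.2 CPM in exponential and 15.4 to 31.4 CPM in stationary phase (-0.27 ± 0.18, adjusted p = 0.27). The response was lower than in CHO-S by 1.24 ± 0.31 in A0 (adjusted p = 0.014) and by 1.46 ± 0.20 in A1 (adjusted p = 6.1e-04). The first did not pass without CHO-S exponential culture 2 or stationary culture 2 (adjusted p = 0.057 and 0.064).

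Nr1d1 needs a limit of its own, since in mammals it shares its 3′ end with Thra, a thyroid hormone receptor gene on the opposite strand. The library kit keeps strand, but the strand setting of the counting is not given in the sources used here, so reads of the overlap may have been left out or placed with either gene. Thra, added after the values of Nr1d1 were seen, rose in all 3 lines, by 0.33 ± 0.11 in A0, 0.48 ± 0.10 in A1 and 0.83 ± 0.15 in CHO-S (adjusted p = 0.028, 4.3e-04 and 0.014). In A1 its direction was the opposite of that of Nr1d1, while in CHO-S both rose, Nr1d1 by 0.96, and in A0 Nr1d1 did not pass. The part of the overlap in these values was not tested. Nr1d2, the related REV-ERB beta receptor, did not pass the test in any line. Its responses were -0.11 ± 0.13 in A0, -0.01 ± 0.07 in A1 and -0.12 ± 0.12 in CHO-S, and the last was -0.15 with adjusted p = 0.022 without the shallow culture.

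The 3 Per genes encode the PERIOD repressors, which bind CRY proteins. Per1, which many extracellular signals induce, had 15.6, 12.9 and 15.3 CPM in exponential and 23.7, 42.1 and 30.1 CPM in stationary CHO-S. Every stationary culture was above every exponential one, also the shallow one, and Per1 rose 2.35-fold (log2 1.24 ± 0.18, adjusted p = 0.0076). In A0 it had 10.2, 12.1, 14 and 10.3 CPM at exponential and 8.65, 11.7, 10.1 and 8.99 CPM at stationary phase, and in A1 15.9, 11.6 and 12 against 9.38, 9.51 and 12.7 CPM. Both sets of groups overlapped, and neither value passed (-0.25 ± 0.15, adjusted p = 0.20, and -0.29 ± 0.14, adjusted p = 0.13). The response of Per1 was lower than in CHO-S by 1.49 ± 0.25 in A0 (adjusted p = 6.3e-04) and by 1.56 ± 0.26 in A1 (adjusted p = 0.0025).

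Per3 showed a similar pattern. It had 61.6, 62.1 and 64.7 CPM in exponential and 130, 113 and 102 CPM in stationary CHO-S, a rise of 0.87 ± 0.14 (adjusted p = 0.011) with no overlap. In A0 the exponential cultures 1 to 4 had 36.5, 39.3, 43.7 and 50.6 CPM and the stationary ones 26.0, 30.8, 35.5 and 41.4 CPM. Each stationary A0 culture was below the exponential culture of the same number, and the difference of -0.36 ± 0.14 was just short of the threshold (adjusted p = 0.053). With the culture number as a block it was -0.37 and passed (adjusted p = 0.0012). In A1 Per3 had 33.3, 32.9 and 38.5 against 38.3, 37.6 and 41.3 CPM (0.18 ± 0.08, adjusted p = 0.10). The response was below that of CHO-S by 1.22 ± 0.21 in A0 (adjusted p = 8.6e-04) and by 0.67 ± 0.15 in A1 (adjusted p = 0.016). The latter passed under 13 of 18 alternatives, and was lost with the replicate block (adjusted p = 0.085) and without A1 exponential culture 3, A1 stationary culture 2 or CHO-S exponential culture 1 or 2. The response in A1 minus that in A0 was 0.50 ± 0.18 (adjusted p = 0.096), and passed under 4 of 23 alternatives, the block among them.

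Per2 was the clock gene that rose in both A1 and CHO-S. In A1 it had 12.8, 6.66 and 10.1 CPM at exponential and 15.8, 13.3 and 15.6 CPM at stationary phase, a rise of 0.60 ± 0.16 (adjusted p = 0.0027). In CHO-S it went from 11.8, 9.86 and 13.3 CPM to 14.4, 23.5 and 23 CPM, a rise of 0.93 ± 0.16 (adjusted p = 0.012). Neither pair of groups overlapped, although A1 exponential culture 2 and the shallow CHO-S culture lay away from the others of their group. In A0 the values were 14.5, 16.2, 15 and 13.7 against 17.8, 21.8, 12.6 and 16 CPM, with overlap (0.19 ± 0.15, adjusted p = 0.35). No difference between the responses of 2 lines passed the test for Per2. A0 against CHO-S gave -0.75 ± 0.25 (adjusted p = 0.067), and -0.77 without the shallow culture (adjusted p = 0.021).

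Cry1 and Cry2 encode the cryptochromes, the repressors that bind the CLOCK and ARNTL pair directly, and they rose in A0. Cry1 had 32.3, 29.7, 28.1 and 33.3 CPM in exponential A0 cultures 1 to 4 and 64.9, 56.5, 40.9 and 44.0 CPM at stationary phase. Every stationary culture was higher, and Cry1 rose 1.66-fold (log2 0.73 ± 0.13, adjusted p = 3.7e-04). Cry2 had 9.05, 9.55, 9.10 and 11.3 CPM at exponential and 19.7, 19.5, 12.4 and 11.9 CPM at stationary phase, also without overlap, and rose by 0.69 ± 0.17 (adjusted p = 0.0042). In both genes stationary cultures 1 and 2 were above stationary cultures 3 and 4. With cultures 1 and 2 alone Cry1 rose by 0.96 and Cry2 by 1.07 (adjusted p = 2.4e-04 and 2.5e-04). With cultures 3 and 4 alone Cry1 still rose, by 0.47 (adjusted p = 0.032), and Cry2 had 0.26 and did not pass (adjusted p = 0.28).

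In A1 neither cryptochrome passed the test. Cry1 had 38.3, 35.8 and 39.4 CPM at exponential and 40.2, 38.1 and 41.2 CPM at stationary phase (0.09 ± 0.08, adjusted p = 0.43). Its response was lower than in A0 by 0.68 ± 0.18 (adjusted p = 0.018), the only clock gene past the test between these lines in the main fit. This test gave -0.91 with A0 cultures 1 and 2 alone (adjusted p = 1.3e-05) and -0.40 with cultures 3 and 4 alone, which did not pass (adjusted p = 0.081). It did not pass either without A1 exponential culture 3 or A1 stationary culture 2. Cry2 in A1 had 13.6, 11.4 and 15.3 CPM against 18.3, 13.8 and 16.5 CPM (0.27 ± 0.13, adjusted p = 0.11), and its difference from A0 was -0.45 ± 0.25 (adjusted p = 0.30).

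In CHO-S the shallow culture again stood apart for both cryptochromes. Cry1 had 55.0, 57.0 and 53.2 CPM at exponential phase and 28.9, 60.9 and 54.3 CPM at stationary phase, with the lowest value in culture 1. Cry2 had 15.1, 15.9 and 14.7 CPM at exponential phase and 8.26, 26.9 and 21.9 CPM at stationary phase, again lowest in culture 1. The responses were -0.12 ± 0.23 for Cry1 and 0.58 ± 0.21 for Cry2 (adjusted p = 0.78 and 0.12). Without culture 1 they were 0.08 (adjusted p = 0.32) and 0.72 (adjusted p = 1.8e-09), so that Cry2 rose in CHO-S once this library was left out. The rise of Cry1 in A0 then exceeded the response of CHO-S by 0.70 (adjusted p = 0.013), against 0.80 ± 0.25 with all cultures (adjusted p = 0.051).

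Dbp, a PAR-bZIP transcription factor that carries the rhythm to output genes, gave the largest log2 fold change of the 10 genes in the 3 phase comparisons, in CHO-S. There it had 1.5, 1.92 and 1.90 CPM at exponential and 5.16, 12.7 and 8.67 CPM at stationary phase. The groups did not overlap, and Dbp rose 5.93-fold (log2 2.57 ± 0.26, adjusted p = 0.0030), or by 2.65 without the shallow culture, in which it rests on 5 counts (adjusted p = 2.8e-22). In A0 it had 3.12, 2.96, 2.30 and 2.12 CPM at exponential and 4.37, 5.13, 2.96 and 3.52 CPM at stationary phase. These groups met at 2.96 CPM, and the rise was 0.59 ± 0.22 (adjusted p = 0.042), 0.64 with cultures 1 and 2 alone (adjusted p = 0.032) and 0.55 with cultures 3 and 4 alone (adjusted p = 0.12). It passed under 10 of 17 alternatives, and not without A0 exponential culture 2, 3 or 4 or stationary culture 1 or 2. In A1 it had 2.37, 2.65 and 3.28 against 2.84, 4.64 and 3.58 CPM (0.47 ± 0.23, adjusted p = 0.12). The response was lower than in CHO-S by 1.95 ± 0.37 in A0 (adjusted p = 0.0016) and by 2.10 ± 0.36 in A1 (adjusted p = 0.0030).

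The calls in CHO-S depended on which culture was left out. Without the shallow stationary culture 7 of the 10 genes passed, with Cry2 and Nr1d2 added, but 47.7% of all genes then passed as well. Leaving out any other single CHO-S culture left 0 to 3 clock genes past the threshold (1 without exponential culture 1 or 3, 0 without exponential culture 2, 1 without stationary culture 2 and 3 without stationary culture 3), with log2 fold changes of 0.95 to 1.30 for Per1, 0.80 to 1.01 for Per2, 0.86 to 0.95 for Per3, 0.81 to 0.99 for Nr1d1 and 2.19 to 2.67 for Dbp. The share of all genes fell as well, from 13.3% with all cultures. It was 1.83% and 1.66% without exponential culture 1 and 3, and 2% and 3.36% without stationary culture 2 and 3. Without exponential culture 2 no gene of the whole table passed in edgeR (0 of all genes), and 5 clock genes had an unadjusted p below 0.05. In A0 the deviations of same-numbered cultures correlated at 0.19 to 0.44 between phases. Exponential cultures 3 and 4 each matched the stationary culture of the other number best. With the culture number as a block 5 genes passed: Cry1, Cry2 and Dbp as before, Per3, and Nr1d1 with -0.29 (adjusted p = 0.020), where 42.7% of all genes passed.

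The levels of the lines were then compared at each phase. The comparisons of A0 and of A1 with CHO-S share the CHO-S cultures, and those that involve A0 share the A0 cultures. In exponential phase 9 of the 10 clock genes differed between A0 and CHO-S, 6 of them higher and 3 lower in A0. This stands against 49.5% of all 19966 genes, 27.6% higher and 21.9% lower. The count was 6 with all 6 groups in 1 fit (42.9% of all genes) and with A0 cultures 3 and 4 only (51.6%). It was 6 to 9 with 1 culture left out (42% to 52.4%). With filterByExpr and with A0 cultures 1 and 2 only all 10 passed (65.2% and 58.7%). Between A1 and CHO-S 6 differed, 4 higher and 2 lower in A1, against 57.2% of all 18488 genes, 30% higher and 27.1% lower. Here 4 passed with DESeq2 (49.4% of all genes) and with all 6 groups in 1 fit (35.3%), and 8 without A1 exponential culture 1 (56.3%). Between A1 and A0 5 differed, 2 higher and 3 lower in A1, against 25.9% of all 19946 genes, 12% higher and 13.8% lower.

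Arntl was the clock gene that exceeded its CHO-S level at both phases in each antibody line. At exponential phase A0 had 49.8, 48.0, 53.1 and 37.9 CPM, A1 had 35.8, 37.0 and 35.3 CPM and CHO-S had 23, 20.3 and 22.6 CPM. The 3 lines did not overlap. A0 was higher than CHO-S by 1.11 ± 0.12 (adjusted p = 2.7e-06), A1 was higher than CHO-S by 0.71 ± 0.08 (adjusted p = 2.3e-08), and A1 was lower than A0 by 0.39 ± 0.11 (adjusted p = 0.019). At stationary phase A0 and A1 were higher than CHO-S by 0.91 ± 0.15 and 0.80 ± 0.15 (adjusted p = 7.5e-04 and 0.0043), and A1 and A0 overlapped (-0.12 ± 0.10, adjusted p = 0.39). Clock was also higher in exponential A0 than in CHO-S, by 0.42 ± 0.10 (adjusted p = 0.0027), and in A1 by 0.13 ± 0.05 (adjusted p = 0.035).

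At exponential phase Nr1d1 and Dbp also exceeded their CHO-S levels in both antibody lines. For Nr1d1 the differences were 0.83 ± 0.15 in A0 and 0.77 ± 0.09 in A1 (adjusted p = 3.6e-04 and 2.0e-07), and for Dbp 0.58 ± 0.23 and 0.65 ± 0.24 (adjusted p = 0.049 and 0.024). No A0 or A1 culture overlapped with CHO-S for either gene. Dbp had at most 3.28 CPM in these groups, and its difference from CHO-S passed under 6 of 16 alternatives in A0 (adjusted p up to 0.26) and 8 of 12 in A1 (up to 0.12). In A0 it was lost with DESeq2, with RLE size factors, with no count filter, with all 6 groups in 1 fit, with cultures 3 and 4 only, and without A0 culture 1 or 2 or any CHO-S culture. In A1 it was lost with DESeq2, with all 6 groups, and without A1 culture 3 or CHO-S culture 1. Nr1d2 was higher in A0 than in CHO-S by 0.24 ± 0.09 (adjusted p = 0.029) and lower in A1 than in A0 by 0.26 ± 0.09 (adjusted p = 0.041). The difference of Nr1d2 between A1 and CHO-S was -0.04 ± 0.05 (adjusted p = 0.56).

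Cry1, Per3 and, in A0, Cry2 were lower than in CHO-S. Cry1, at 28.1 to 33.3 CPM in exponential A0, 35.8 to 39.4 in A1 and 53.2 to 57.0 in CHO-S, ordered the 3 lines without overlap. It was lower than in CHO-S by 0.83 ± 0.09 in A0 (adjusted p = 3.1e-06) and by 0.54 ± 0.06 in A1 (adjusted p = 1.1e-07), and higher in A1 than in A0 by 0.29 ± 0.10 (adjusted p = 0.040). Per3 was lower than in CHO-S by 0.55 ± 0.11 in A0 and by 0.85 ± 0.07 in A1 (adjusted p = 5.8e-04 and 1.5e-10), again with no culture in common range. Cry2 was lower than in CHO-S by 0.63 ± 0.12 in A0 (adjusted p = 4.7e-04) and higher in A1 than in A0 by 0.46 ± 0.14 (adjusted p = 0.025), while A1 against CHO-S gave -0.18 ± 0.11 (adjusted p = 0.17). Per2 went the other way in A0, which was higher than CHO-S by 0.36 ± 0.13 (adjusted p = 0.029) and higher than A1 by 0.59 ± 0.17 (adjusted p = 0.021). Per1 passed between no lines at this phase (adjusted p = 0.073, 0.27 and 0.45).

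Several of these exponential differences lay near the threshold, and some alternatives ended them while none turned them. Against CHO-S, Per2 in A0 passed under 10 of 16 alternatives, Nr1d2 in A0 under 9 of 16 and Clock in A1 under 6 of 12. Of A1 against A0, Per2 passed under 12, Arntl under 11, Cry1 and Cry2 under 9 and Nr1d2 under 8 of 16. When single cultures were left out of A1 against A0, 4 of 7 fits kept the call of Per2, 3 that of Arntl, 2 those of Cry1 and of Cry2 and 1 that of Nr1d2.

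**Figure D3:**
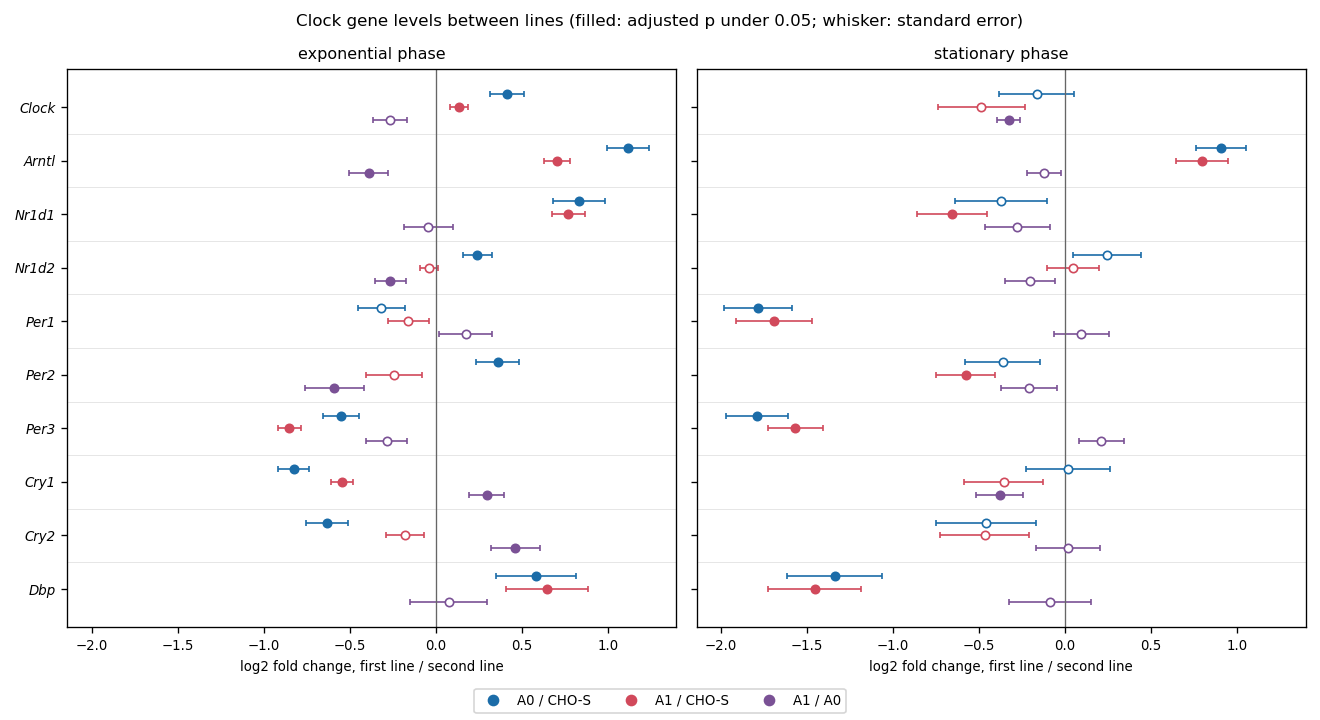
Difference of each clock gene between lines (horizontal axis, log2 fold change of the first line over the second) at exponential (left) and stationary phase (right), with the SE as whisker and filled symbols for an adjusted p below 0.05. Dbp and Nr1d1 lie right of 0 against CHO-S at exponential phase, at 0.58 to 0.83, and left of 0 at stationary phase, while Arntl lies right of 0 against CHO-S at both.

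At stationary phase the order of Per1, Per3 and Dbp was the same in both antibody lines, below CHO-S. In all, 4 clock genes differed between A0 and CHO-S, 1 higher and 3 lower, against 40% of all 19007 genes, 20.7% higher and 19.3% lower. Between A1 and CHO-S 6 differed, 1 higher and 5 lower, against 34.8% of all 18243 genes, 18.2% higher and 16.6% lower. Per1 was lower than in CHO-S by 1.78 ± 0.20 in A0 and by 1.69 ± 0.22 in A1 (adjusted p = 6.3e-05 and 6.9e-04). Per3 was lower by 1.79 ± 0.18 and 1.57 ± 0.16 (adjusted p = 3.2e-05 and 2.1e-04), and Dbp by 1.34 ± 0.28 and 1.46 ± 0.27 (adjusted p = 0.0032 and 0.0039). For all 3 genes each A0 and A1 culture lay below each CHO-S culture, the shallow one included. For Dbp the margin was slight, at 5.13 CPM in the highest A0 culture against 5.16 CPM, from 5 counts, in the shallow culture. The Dbp difference of A0 from CHO-S passed under 14 of 15 alternatives, and not without CHO-S stationary culture 2 (adjusted p = 0.069).

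Per2 and Nr1d1 were lower in stationary A1 than in CHO-S, by 0.58 ± 0.17 (adjusted p = 0.030) and 0.66 ± 0.20 (adjusted p = 0.037), with overlap that came from the shallow CHO-S culture. Without it the values were -0.68 and -0.81 (adjusted p = 1.2e-06 and 7.3e-10). Leaving out any other single culture ended both calls (adjusted p up to 0.18 for Per2 and 0.20 for Nr1d1), as did the replicate block (adjusted p = 0.15 and 0.13), and DESeq2 ended that of Per2. In A0 they were -0.36 ± 0.22 and -0.37 ± 0.27 and did not pass (adjusted p = 0.22 and 0.30). Clock against CHO-S turned with the shallow culture in A0, from -0.17 ± 0.22 (adjusted p = 0.58) to 0.20 without it (adjusted p = 0.038). Without it, too, Cry2 was lower than in CHO-S by 0.62 in A0 (adjusted p = 0.025) and by 0.66 in A1 (adjusted p = 2.7e-06), and Cry1 was lower in A1 by 0.57 (adjusted p = 2.2e-08).

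Between stationary A1 and A0, Clock and Cry1 differed, both lower in A1, against 33.7% of all 19293 genes, 16% higher and 17.7% lower. Clock had 159 to 162 CPM in the 4 A0 cultures and 123 to 133 CPM in the 3 A1 cultures, without overlap, and was lower in A1 by 0.33 ± 0.07 (adjusted p = 0.0015). Cry1 had 40.9 to 64.9 CPM in A0 and 38.1 to 41.2 CPM in A1, with A0 culture 3 inside the range of A1, and was lower in A1 by 0.38 ± 0.14 (adjusted p = 0.044), a call that passed under 7 of 15 alternatives and in 2 of 7 fits without 1 culture. With A0 cultures 3 and 4 alone the stationary value of Cry1 was -0.10 (adjusted p = 0.39), while Clock stayed at -0.33 (adjusted p = 5.0e-04).

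Over the 20 cultures the clock genes also varied together in part. These correlations of log2(CPM + 1) mix line, phase and depth and are given as description. Cry1 and Cry2 had Pearson r = 0.86, Per1 and Per3 0.85, Per2 and Dbp 0.69, and Per1 and Dbp 0.61, while Arntl ran against Per3 (-0.80) and Per1 (-0.68). For the genes past the threshold in 2 of the 3 phase comparisons, the most similar genes among 10588 with at least 5 CPM on average were Mapre3 (0.92) and Sgpl1 (0.88) for Dbp, Sema3b (0.87) and Wdr1 (0.84) for Nr1d1, and Mapre3 (0.81) and Csnk1g2 (0.79) for Per2.

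The rest of the clock was read from a list of 24 further genes, of which 23 had a row in the table and 18 to 20 passed the filter in a phase comparison. Rora and Rorb, nuclear receptors that activate Arntl, had 0 or 1 count in every culture, as had Hlf, Usp2 and Fbxl21. In A0 8 of 20 listed genes changed with phase, 4 up and 4 down, where 37.7% of all genes changed. In A1 7 of 19 changed, 5 up and 2 down, against 33.4% of all genes. In CHO-S 5 of 18 changed, 3 up and 2 down, against 13.3% of all genes. Without the shallow culture 14 did (8 up and 6 down), where 47.7% of all genes passed. The responses differed for 3 of 20 listed genes between A1 and A0, where 8.94% of all genes differed. Between A0 and CHO-S they differed for 4 of 20 (7 without the shallow culture), against 10.3% of all genes. Between A1 and CHO-S they differed for 3 of 19 (11 without it), against 7.6% of all genes. With this culture left out, 17.2% and 25.4% of all genes differed. In levels, 5 of 20 listed genes differed between A1 and A0 at exponential phase (3 higher and 2 lower in A1), against 25.9% of all genes. At stationary phase 8 of 20 did (3 higher and 5 lower), against 33.7%. From CHO-S, 12 of 20 differed in exponential A0 (8 higher and 4 lower), against 49.5% of all genes. In stationary A0 10 of 20 did (4 higher and 6 lower), against 40%. In exponential A1 10 of 19 did (4 higher and 6 lower), against 57.2%. In stationary A1 8 of 18 did (2 higher and 6 lower), against 34.8%.

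Nfil3, which competes with DBP for its sites and represses them, rose in A0 and A1. It had 14.1 to 16.8 CPM in exponential and 54.5 to 61.8 CPM in stationary A0, a rise of 1.94 ± 0.10 (adjusted p = 2.3e-09), and rose by 0.99 ± 0.10 in A1 (adjusted p = 1.3e-09), from 16.1 to 18.7 CPM to 32.7 to 38.7 CPM. In CHO-S it had 5.29, 6.35 and 7.21 CPM and then 3.10, 9.97 and 9.21 CPM (0.55 ± 0.21, adjusted p = 0.14), and 0.63 without the shallow culture (adjusted p = 2.3e-04). The rise in A0 exceeded that in CHO-S by 1.39 ± 0.24 (adjusted p = 8.4e-04) and that in A1 was below that in A0 by 0.98 ± 0.14 (adjusted p = 1.8e-04).

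Npas2, a paralogue that can take the place of Clock, rose in the antibody lines. It went from 24.2 to 35.4 CPM to 45.1 to 74.4 CPM in A0 (0.97 ± 0.15, adjusted p = 1.1e-04) and from 24.6 to 31.3 CPM to 44.2 to 55.9 CPM in A1 (0.84 ± 0.09, adjusted p = 1.4e-08). In CHO-S it stayed between 22.7 and 26.4 CPM (-0.04 ± 0.11), and the response was higher than there by 0.99 ± 0.25 in A0 and by 0.88 ± 0.16 in A1 (adjusted p = 0.012 and 0.0046). Arntl2, the paralogue of Arntl, fell by 2.34 ± 0.28 in A0 (adjusted p = 7.3e-06), from 4.43 to 7.74 CPM to 0.624 to 1.95 CPM, and by 0.99 ± 0.14 in CHO-S (adjusted p = 0.0060), from 17.2 to 18.7 CPM to 5.16 to 9.97 CPM. It was low in A1 at both phases, at 1.14 to 2.82 CPM (-0.63 ± 0.29, adjusted p = 0.10).

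Bhlhe40 and Bhlhe41, the DEC repressors that compete for the sites of CLOCK and ARNTL, both rose in CHO-S, and Bhlhe40 rose in all 3 lines. In CHO-S Bhlhe40 went from 54.6 to 67.1 CPM to 79.5 to 164 CPM (1.08 ± 0.25, adjusted p = 0.029). In A0 it rose by 0.57 ± 0.21 (adjusted p = 0.037) and in A1 by 0.43 ± 0.11 (adjusted p = 0.0027). These responses did not pass the test of the difference from CHO-S (adjusted p = 0.36 and 0.13), and that of A1 passed without the shallow culture (-0.90, adjusted p = 5.7e-08). Bhlhe41 had 20.8, 16.5 and 15.8 CPM at exponential and 277, 60.7 and 57.9 CPM at stationary phase in CHO-S, with the shallow culture far above the others. Its rise was 2.81 ± 0.63 (adjusted p = 0.028), and 1.74 without that culture (adjusted p = 7.3e-34). In A0 Bhlhe41 fell by 0.83 ± 0.18 (adjusted p = 0.0017), and its response was lower than in CHO-S by 3.52 ± 0.54 (adjusted p = 2.6e-04), or by 2.53 without the shallow culture (adjusted p = 5.3e-07). In A1 it had 0.07 ± 0.10 (adjusted p = 0.67), a difference from CHO-S of -2.47 ± 0.62 (adjusted p = 0.026), and of -1.69 without that culture (adjusted p = 2.8e-16). Timeless, whose product works in DNA replication and was also described as a partner of the repressors, fell by 0.44 ± 0.12 in A0 (adjusted p = 0.0074) and by 0.83 ± 0.18 in CHO-S (adjusted p = 0.027), from 114 to 125 CPM to 47.5 to 75.7 CPM in the latter. In A1 its groups overlapped (-0.11 ± 0.07, adjusted p = 0.22).

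**Figure D4:**
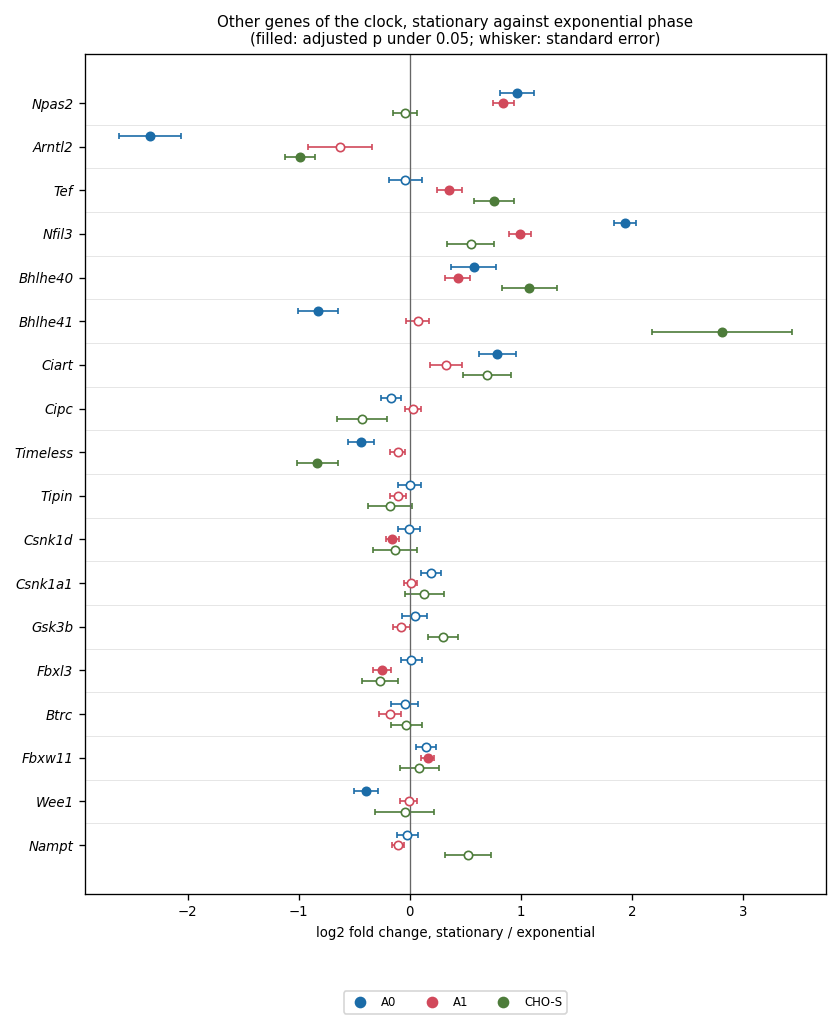
Change from exponential to stationary phase (horizontal axis, log2 fold change) of 18 further clock genes in A0, A1 and CHO-S, with the SE as whisker and filled symbols for an adjusted p below 0.05. Nfil3 and Npas2 lie to the right in A0 and A1, at 0.84 to 1.94, Bhlhe41 lies at 2.81 in CHO-S and at -0.83 in A0, and most kinases and ubiquitin ligase genes lie near 0.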

How the data were processed

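RNA of A0, A1 and CHO-S was sequenced at exponential and stationary phase. The authors made libraries with a stranded mRNA kit and mapped the reads with STAR 2.5.4b to a CHO genome. They deposited raw counts per gene from HTSeq-count 0.7.2. Its 5 summary lines were removed, which left 28037 genes in 24 libraries. Not aligned were 2.31% to 11.5% of the reads, a share that differed by line and phase. At exponential and stationary phase it was 2.31% to 2.36% and 2.35% to 3.06% in CHO-S. It was 3.13% to 4.85% and 6.43% to 9.41% in A0, and 7.49% to 8.64% and 10.3% to 11.5% in A1. Its part in the results was not tested. Reads with more than 1 alignment are not counted by HTSeq-count.

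The members, the further clock genes and the tests were chosen with earlier results of these data known. A0 exponential libraries of a culture number were summed. The tests were run in edgeR 4.0.16 under R 4.3.3 on each gene whose counts varied and reached 1 in 2 or more cultures. They used TMM normalization, two-sided quasi-likelihood tests and Benjamini-Hochberg adjusted p-values over all these genes, called below 0.05. Each comparison used only its own groups, and differences of phase responses were tested as the interaction of line and phase. The main tests did not use the culture number, which was tried as a block. Between the A0 phases the deviations of same-numbered cultures from their group means correlated at 0.19 to 0.44 (4 pairs). Exponential cultures 3 and 4 each correlated best with the stationary culture of the other number. A pairing by number and a shared difference of cultures 1 and 2 from 3 and 4 cannot be told apart. In the other comparisons at least 1 pair was below 0.1. Labels do not say whether cultures of a line were grown independently of each other, so p-values measure the spread between these cultures only. The tests also draw on the spread of the other genes in the fit. The very small adjusted p-values without the shallow CHO-S culture therefore do not rest on the spread of that gene alone.

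Alternatives were DESeq2 1.42.0, RLE size factors, other gene filters, all 6 groups in 1 fit, the culture number as replicate block, subsets of the A0 libraries and cultures, and each culture left out in turn. The procedure was tested on simulated counts, only for the phase response of CHO-S and the difference of the phase responses of A1 and A0. The changes were put into genes of at least 5 CPM. Lower genes, smaller changes and a culture that departs from its group were not covered. All 10 clock genes are named. Of the further list, the text gives counts and names the 6 largest phase changes past the threshold with at least 5 CPM in a group, other genes being named by role. Gene names are those of the table. Promoter and protein sequences were not analysed here, and results for some genes are not reported here.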

Additional observations from a re-analysis of the deposited data

Results flagged for a closer look

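The responses of 5 clock genes to stationary phase differed between lines by the interaction test of line and phase. For Cry1 the response of A1 minus that of A0 was -0.68 on the log2 scale. It had an adjusted p of 0.018 with 4 A0 and 3 A1 cultures per phase, and passed under 19 of 23 alternatives, not with A0 cultures 3 and 4 alone. The response of A0 minus that of CHO-S was -1.49 for Per1, -1.22 for Per3, -1.24 for Nr1d1 and -1.95 for Dbp. The response of A1 minus that of CHO-S was -1.56 for Per1, -0.67 for Per3, -1.46 for Nr1d1 and -2.10 for Dbp. The tests against CHO-S share its 6 cultures. Without the shallow stationary CHO-S culture these differences were -1.52, -1.09, -1.30 and -1.98 in A0 and -1.64, -0.62, -1.56 and -2.19 in A1, in the same order of genes, and all 8 passed the threshold. Over all alternatives, Per3 in A1 passed in 13 of 18 and Nr1d1 in A0 in 21 of 23. The part of clock time at harvest was not tested.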

How the results depend on the processing

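Over 120 values of 10 clock genes in 12 comparisons, 1659 of 1910 alternative values kept both direction and side of the threshold. Of the 52 values past the threshold, 24 kept both under every alternative run and 0 turned direction, while 132 of 792 alternative values were no longer past it. Against CHO-S, the phase responses of Per1, Per3 and Dbp in A0 and of Per1, Nr1d1 and Dbp in A1 passed under every alternative run. Where counts or signs moved, the cause was not tested. Depth limits Dbp most, since 3 counts correspond to 2.89 CPM in the shallowest and 0.113 CPM in the deepest culture. DESeq2 moved the median of all genes from -0.032 to -0.15 for the response of A0 against CHO-S and from 0.028 to -0.11 for that of A1, and turned no clock gene.

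In relative terms the number of clock genes past the threshold moved most as follows. The share of all genes past it in the same fit is given as a percentage. With all 6 groups in 1 fit it was 0 for the phase response of A1 (11.6%, against 33.4% in the main fit) and 2 for exponential A1 against A0 (20.2%). It was also 0 for stationary A1 against A0 (24.1%) and for the difference of the phase responses of A1 and A0 (4.56%). For each 0, 2 clock genes had an unadjusted p below 0.05 by edgeR. With A0 cultures 3 and 4 only it was 1 for the phase response of A0 (27.8%) and 2 for exponential A1 against A0 (25.8%). For the difference of the phase responses of A1 and A0 it was 0 (9.06%, and 4 clock genes unadjusted). With A0 cultures 1 and 2 only it was 6 for stationary A1 against A0 (41.8%) and 3 for that difference (22.7%). With filterByExpr it was 1 for stationary A1 against A0 (47.2%). With the first A0 exponential libraries only it was 2 for the difference of the phase responses of A1 and A0 (11.5%). With a replicate block it was 5 for the phase response of A0 (42.7%), 1 for that of CHO-S (2.02%) and 5 for stationary A1 against A0 (33.6%). For the difference of the phase responses of A1 and A0 it was 2, Cry1 and Per3 (16.4%). By the labels the samples share only a number. The block ended calls of Per1, Per2, Per3 and Nr1d1 in CHO-S, where 350 of all genes passed. Leaving out each culture in turn gave 0 to 7 for the phase response of CHO-S (0% to 47.7%) and 0 to 6 for exponential A1 against A0 (16% to 30.8%). It gave 1 to 4 for stationary A1 against A0 (25.6% to 34.1%) and 0 to 2 for the difference of the phase responses of A1 and A0 (4.81% to 12.8%). Where such a count was 0, the clock genes with an unadjusted p below 0.05 by edgeR were 5 for CHO-S, 6 for exponential A1 against A0 and 2 for the difference.

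Other signs turned as follows, for values that were not past the threshold in their comparison. With A0 cultures 1 and 2 only these were Nr1d2 in the phase response of A0 (0.12), Dbp in exponential (-0.14) and Cry2 in stationary A1 against A0 (-0.31), and Nr1d2 in the difference of the phase responses of A1 and A0 (-0.17). With A0 cultures 3 and 4 only they were Nr1d1 in exponential A1 against A0 (0.17), Per2 (0.040), Nr1d1 (0.091), Nr1d2 (0.10) and Dbp (0.22) in stationary A1 against A0, Cry1 (-0.26) and Nr1d2 (-0.080) in stationary A0 against CHO-S, Clock (0.031) and Per1 (0.038) in the difference of A1 and A0, and Cry2 (-0.32) and Nr1d2 (-0.25) in that of A0 and CHO-S. The replicate block gave -0.0076 for Dbp in exponential and -0.081 for Cry2 in stationary A1 against A0 and -0.023 for Nr1d2 in the difference of A0 and CHO-S. For the last, filterByExpr gave -0.0012 and the first libraries -0.030. Nr1d2 in the phase response of A1 was 0.012 with filterByExpr, Cry1 in stationary A0 against CHO-S was -0.025 with all groups, and Clock in the difference of A1 and A0 was 0.020 with the first libraries.

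Leaving out each culture also turned signs of values not past the threshold. The ranges were -0.057 to 0.076 for Nr1d2 in the phase response of A1 and -0.31 to 0.084 for Cry1 in that of CHO-S. In A1 against A0 they were -0.16 to 0.043 for Nr1d1 and -0.070 to 0.17 for Dbp at exponential phase, and -0.29 to 0.063 for Dbp, -0.11 to 0.14 for Cry2 and -0.080 to 0.19 for Per1 at stationary phase. In stationary A0 against CHO-S they were -0.15 to 0.27 for Cry1 and -0.30 to 0.21 for Clock. In the difference of A1 and A0 they were -0.25 to 0.078 for Per1, -0.047 to 0.20 for Nr1d2 and -0.14 to 0.018 for Clock, in that of A0 and CHO-S -0.086 to 0.11 for Nr1d2, and in that of A1 and CHO-S -0.0091 to 0.30 for Cry1.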
